A study of Homo sapiens with 24 samples.

Results

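Amino acid transporters are the proteins that carry amino acids across the plasma membrane, and the transcripts of 10 of them were followed here in MIA PaCa-2, an established human cell line from a pancreatic ductal adenocarcinoma. The 10 genes, SLC7A11, SLC7A5, SLC3A2, SLC7A1, SLC1A5, SLC1A4, SLC38A1, SLC38A2, SLC6A9 and SLC43A1, were taken by name as rows of a count table that held 60675 genes. The C/EBPδ-inducible cells carried a doxycycline-responsive Tet-On construct with CEBPD, which encodes the transcription factor C/EBPδ, together with the green reporter mVenus, and were a pool of 3 clones. The CTRL cells carried the same vector with no cDNA, together with the red reporter mCherry. Both lines received doxycycline at 2 µg/mL for 0, 8, 24 or 48 h, and each of the 8 groups had 3 replicates, 24 libraries of ribosomal RNA-depleted total RNA in all. The study's methods describe the baseline cells as kept without doxycycline, and 0 h is read in that way here, although the labels carry the same 2 µg/mL for the 0 h samples. The labels name no untreated cells of the later times, so doxycycline and time in culture cannot be told apart within a line. The study's methods describe cells seeded as 3 wells, and nothing in the labels says whether the replicates came from separately grown cultures. The p-values therefore measure the spread between these libraries.

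Amino acid transporters work in classes. Heteromeric antiporters pair a light chain, SLC7A5 for large neutral amino acids or SLC7A11 for cystine, with the shared heavy chain SLC3A2, and trade an amino acid inside for one outside. Uniporters such as SLC7A1 (arginine and lysine) and SLC43A1 (large neutral amino acids) let an amino acid follow its gradient. Sodium-coupled carriers such as SLC38A1, SLC38A2 and SLC6A9 load the cell with glutamine, serine, alanine or glycine. SLC1A5 and SLC1A4 also need sodium but exchange neutral amino acids. Many of these genes are textbook targets of ATF4, the transcription factor made when cells lack amino acids or suffer stress of the endoplasmic reticulum, which binds a composite site known as the C/EBP-ATF response element, and SLC7A11 is also driven by NRF2 in oxidative stress.

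Because the study alters a C/EBP factor, the start regions of the members were searched for that element. RefSeq promoter windows (GRCh38.p14, from 250 bases before to 50 bases after a start) were at hand for 9 of the 10 members, SLC7A11 being the one without, in 16 windows of 300 bases. The 8-letter core TGATGNAA of the C/EBP-ATF response element, read on both strands, lay in 5 of the 9 genes and 5 of the 16 windows, compared with 3.62% of 35116 windows and 4.46% of 27305 genes across the genome. The 5 matches are shown with their flanks, 5′ to 3′ on the strand of the gene, with the matched letters in capitals.
SLC1A5: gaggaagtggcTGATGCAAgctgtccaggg
SLC7A1: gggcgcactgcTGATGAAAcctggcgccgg
SLC38A1: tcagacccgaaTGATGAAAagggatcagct
SLC1A4: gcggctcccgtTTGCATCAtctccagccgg
SLC3A2: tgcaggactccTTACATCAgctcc
Counted with the start as +1 and no position 0, the first matched base was at −97 in SLC1A5 (chr19:46784893-46784922, minus strand), at 8 in SLC7A1 (chr13:29595663-29595692, minus strand) and at −4 in SLC38A1 (chr12:46266502-46266531, minus strand). It was at −7 in SLC1A4 (chr2:64989381-64989410, plus strand) and at 38 in SLC3A2 (chr11:62881725-62881748, plus strand), and in these 2 genes the letters are the reverse complement of the core. A gene can have several starts, and each window belongs to one of them. The C/EBP half-site pair TTGCNNAA was in none of the 9 genes (12.7% of all genes), and the antioxidant response element core TGACNNNGC, the NRF2 motif, was in 4 of the 9, SLC1A5, SLC3A2, SLC7A1 and SLC7A5 (16.1% of all genes). A match of letters is a description of the window and shows no binding. Many members are known ATF4 targets and the list was chosen with earlier results known, so the excess over the genome is no test. The share of genes also depends on windows per gene, with 16 for the 9 members and 35116 for the 27305 genes.

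CEBPD itself followed the labels. Its level, in CPM (counts scaled to library size, with TMM factors over the 24 libraries), was 1.32 to 4.43 in the CTRL cells at all times, whereas in the inducible cells the mean was 21.6 ± 2.36 (SD, n = 3) at 0 h, 249.4 ± 15.3 at 8 h, 307 ± 12.6 at 24 h and 204 ± 7.16 at 48 h. The inducible line thus differed from CTRL in CEBPD by a log2 of 2.44 at 0 h. Reads from the construct and from the cell's own CEBPD gene are counted together.

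The libraries held 12731237 to 22598595 counts (median 18959363.5). Of 8 ductal epithelial markers, KRT8, KRT18, KRT19 and SOX9 were expressed in both lines, and EPCAM, KRT7 and CDH1 had group means of 0.121 to 4.76 CPM. The summed ductal markers ran from 2270.2 to 3138.2 CPM in the CTRL libraries and from 179.0 to 312.9 CPM in the inducible libraries, a gap that was already there at 0 h. Of 12 markers of other cell types, COL1A2 made up nearly all of the sum, which was 450.9 to 690.4 CPM in CTRL and 137.6 to 254.9 CPM in the inducible libraries, CD68 and COL1A1 reached 2.02 and 1.86 CPM, the other 9 stayed at or below 0.34 CPM, and INS, GCG and PRSS1 were 0 throughout. In bulk RNA, fewer cells of a type and less RNA per cell cannot be told apart, and the part of these line differences in the transporter results was not tested. The CTRL libraries of replicates 1 and 3 at 8 h and of replicate 1 at 48 h lay farthest from their groups (root mean square log2 difference 0.217, 0.2 and 0.179 over 9033 genes, against a median of 0.116 over all libraries). A few low transcripts were also shared between same-numbered libraries of different times: RARRES1 had 180 and 193 counts in replicate 3 of CTRL at 0 h and 24 h and 1 or 0 counts in replicate 3 at 8 h and 48 h, and CALB1 had 45 and 46 counts in replicate 2 of CTRL at 0 h and 24 h and 0 at 8 h and 48 h. In the inducible cells KRT5 had 40 and 102 counts in replicate 2 at 8 h and 48 h and 1 and 0 at 0 h and 24 h. Other transcripts of this line kept less to the number. KRT17 had 3, 57 and 59 counts in replicates 1, 2 and 3 at 8 h and 19, 29 and 17 at 48 h. CALB1 had 35, 10, 0 and 19 counts in replicate 2 at 0, 8, 24 and 48 h, and 18 in replicate 1 at 24 h. These genes were picked once their values had been looked at, the labels name no batch, and their part in the results was not tested. RARRES1 reached 9.41 CPM in such a library, and of the members SLC43A1 lay below that level in every library and SLC7A11, SLC6A9 and SLC1A4 not far above it in CTRL at 0 h (11.3 to 14.4 CPM).

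Every member was measured in every library, the lowest with 1.65 CPM, and all 10 passed the filter on low counts in every comparison. Per kilobase of exon the levels, averaged over the 24 libraries, were ordered SLC38A2 (213.6 CPM per kb, range over libraries 163.8 to 262.9), SLC7A5 (130.6, 68.7 to 179.9), SLC1A5 (100.7, 72.2 to 128.2), SLC38A1 (48.1, 36.2 to 69.5), SLC7A1 (46.2, 34.2 to 66.5) and SLC3A2 (32.9, 20.7 to 44.8), followed by SLC7A11 (7.03, 1.17 to 15.8), SLC1A4 (5.21, 1.92 to 8.46), SLC6A9 (4.61, 2.31 to 6.35) and SLC43A1 (0.789, 0.468 to 1.61). The ranges of neighbours in this order overlapped, except between SLC1A5 and SLC38A1, between SLC3A2 and SLC7A11 and between SLC6A9 and SLC43A1. SLC7A11 had the widest range of the 10, relative to its mean. The order is that of a mean over all groups and differed within them. In CTRL at 0 h it ran SLC6A9 (2.52 CPM per kb), SLC1A4 (1.99) and SLC7A11 (1.2), and SLC1A5 (81.1) stood above SLC7A5 (70.8). SLC7A1 stood above SLC38A1 in the 4 CTRL groups and below it in the 4 inducible groups.

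**Figure D1:**
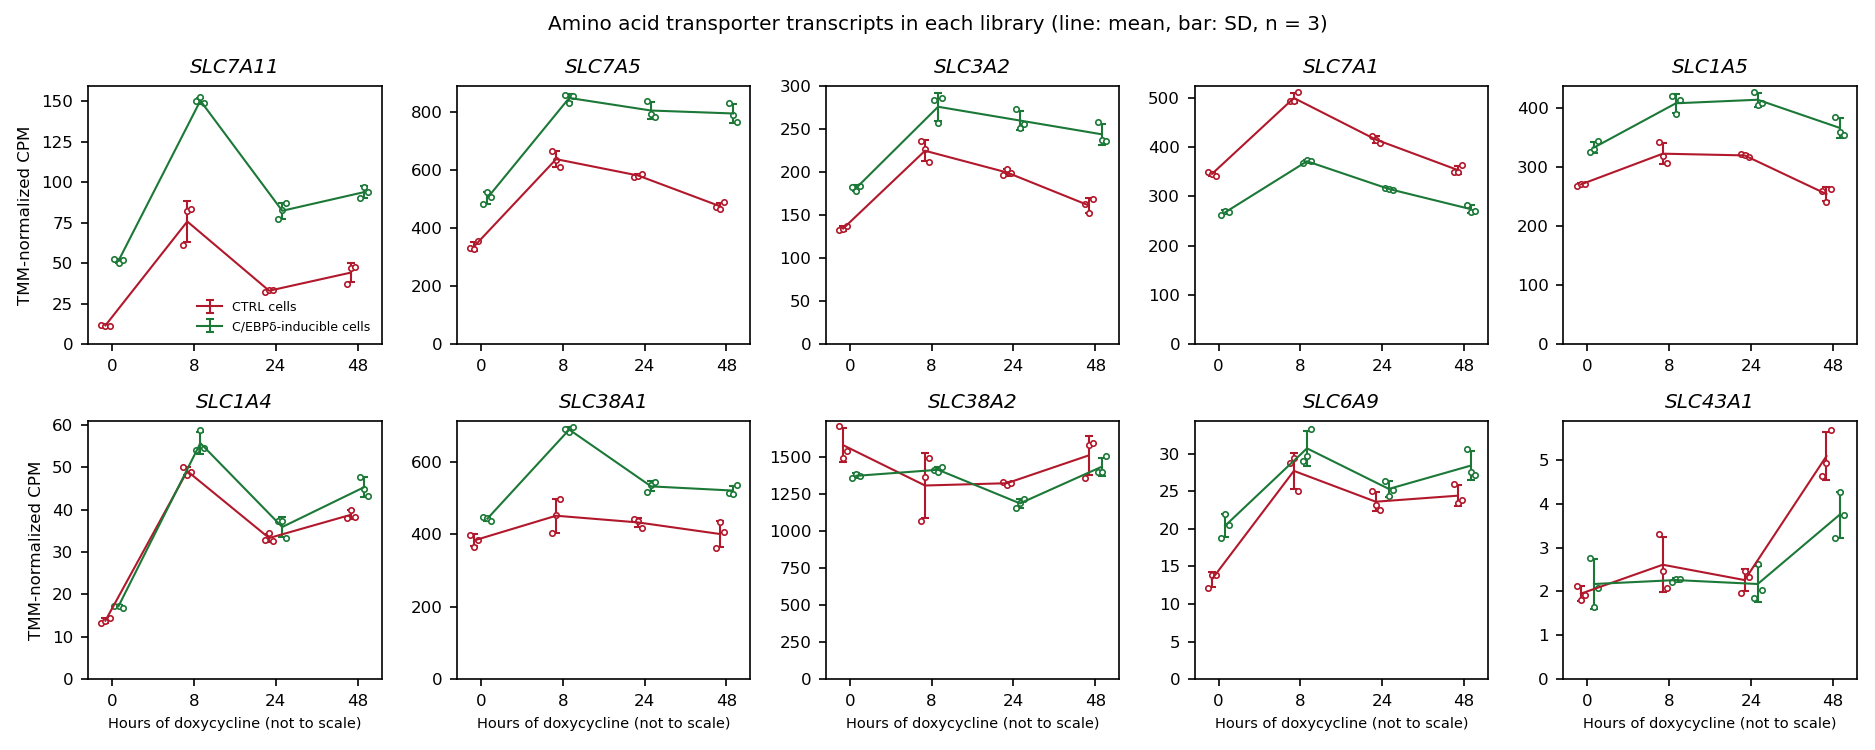
TMM-normalized CPM (y axis, linear from 0, own scale per gene) of the 10 transporters against hours of doxycycline (x axis, 0, 8, 24 and 48 h, spacing not to scale) in CTRL cells (red) and C/EBPδ-inducible cells (green). Open points are the 3 libraries of a group, lines join the means and bars are SD. SLC7A11 lies higher in the inducible cells at every time and peaks at 8 h in both lines, SLC7A1 is the one member lower in the inducible cells at every time without overlap, and SLC38A2 has no peak at 8 h.

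SLC7A11 (ENSG00000151012, chr4:138164097-138242349, minus strand), the cystine-glutamate antiporter that feeds glutathione synthesis, differed most between the lines. At 0 h the 3 CTRL libraries gave 11.9, 11.3 and 11.5 CPM and the inducible libraries 52.6, 50.2 and 51.7 CPM. After 8 h the CTRL libraries gave 61.1, 82.3 and 83.6 CPM and the inducible ones 149.8, 152.2 and 148.6 CPM. At 24 h the CTRL libraries stood at 32.5, 33.2 and 33.3 CPM and the inducible ones at 77.2, 82.9 and 86.9 CPM. The lines did not overlap at any of these times, and neither did the 8 h libraries of a line with its 0 h libraries. At 48 h CTRL gave 37.4, 47.3 and 47.9 CPM and the inducible cells 90.1, 97.1 and 94.1 CPM, again without overlap. In CTRL cells replicate 1 was the lowest of its group at 8 h and at 48 h. At 0 h SLC7A11 was 4.42-fold higher in the inducible cells (log2 2.14, SE 0.0594, adjusted p = 2.15e-16, edgeR quasi-likelihood test). The line difference was 1.98-fold at 8 h (log2 0.99, SE 0.0981, adjusted p = 8.98e-06), 2.49-fold at 24 h (log2 1.31, SE 0.0478, adjusted p = 4.78e-18) and 2.12-fold at 48 h (log2 1.09, SE 0.0827, adjusted p = 1.23e-07). Exons of SLC7A11 overlap an antisense gene, SLC7A11-AS1, which had at most 0.282 CPM.

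Within a line SLC7A11 rose with doxycycline and time in both. In CTRL cells it was 6.64-fold higher at 8 h than at 0 h (log2 2.73, SE 0.122), 2.86-fold at 24 h (log2 1.51, SE 0.0622) and 3.8-fold at 48 h (log2 1.92, SE 0.0994). The rise in the inducible cells was 2.9-fold at 8 h (log2 1.54, SE 0.0326), 1.61-fold at 24 h (log2 0.68, SE 0.0463) and 1.81-fold at 48 h (log2 0.86, SE 0.0421). All 6 rises of SLC7A11 passed the threshold of an adjusted p under 0.01. The interaction of line and doxycycline, which is the change in the inducible cells minus the change in CTRL cells, was negative at 8 h (log2 −1.17, SE 0.131, adjusted p = 0.00011), at 24 h (−0.83, SE 0.0789, adjusted p = 4.7e-08) and at 48 h (−1.08, SE 0.111, adjusted p = 2.07e-06). These are differences between ratios. As a difference in CPM, SLC7A11 gained 64.1 (SE 7.31) in CTRL and 98.7 (SE 1.27) in the inducible cells at 8 h, 21.4 (SE 0.307) and 30.8 (SE 2.91) at 24 h, and 32.6 (SE 3.4) and 42.3 (SE 2.13) at 48 h, so that the order of the lines turned with the scale. The difference between the lines on the CPM scale was not tested.

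SLC7A5 (ENSG00000103257, chr16:87830023-87869507, minus strand), the light chain that imports leucine and other large neutral amino acids, was the next member by line difference at 24 h. The CTRL libraries gave 329, 327 and 355 CPM at 0 h, 664, 635 and 611 CPM at 8 h, 576, 580.1 and 586 CPM at 24 h, and 473, 464 and 488 CPM at 48 h. The inducible libraries gave 482, 523 and 505 CPM at 0 h, 857, 831 and 854 CPM at 8 h, 837, 791 and 783 CPM at 24 h, and 829, 787 and 765 CPM at 48 h. Both lines had their highest mean at 8 h, and the inducible cells lay above CTRL at each time without overlap. The line difference was 1.48-fold at 0 h (log2 0.57, SE 0.034, adjusted p = 3.5e-11), 1.33-fold at 8 h (adjusted p = 2.51e-05), 1.38-fold at 24 h (adjusted p = 2.25e-13) and 1.67-fold at 48 h (log2 0.74, SE 0.0415, adjusted p = 5.3e-09). Against 0 h, SLC7A5 rose 1.92-fold at 8 h, 1.72-fold at 24 h and 1.4-fold at 48 h in CTRL and 1.67-fold, 1.6-fold and 1.57-fold in the inducible cells, each past the threshold. The pseudogene SLC7A5P1 had group means of 1.86 to 3.91 CPM, and how reads that fit both were assigned is not given in the sources used here.

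SLC3A2 (ENSG00000168003, chr11:62856004-62888880, plus strand) is the heavy chain that SLC7A5 and SLC7A11 need to reach the membrane. It gave 132, 133 and 138 CPM in CTRL at 0 h and 236, 227 and 212 CPM at 8 h, followed by 197, 204 and 199 CPM at 24 h and 163, 152 and 169 CPM at 48 h. The inducible cells gave 183, 178 and 184 CPM at 0 h, 284, 257 and 287 CPM at 8 h, 273, 251 and 255 CPM at 24 h, and 258, 237.0 and 237 CPM at 48 h. The lines did not overlap at any time. SLC3A2 was 1.34-fold higher in the inducible cells at 0 h (log2 0.42, SE 0.0334, adjusted p = 2.11e-09), 1.22-fold at 8 h (log2 0.29, SE 0.0611, adjusted p = 0.00229), 1.3-fold at 24 h (log2 0.38, SE 0.0346, adjusted p = 7.66e-10) and 1.51-fold at 48 h (log2 0.59, SE 0.0535, adjusted p = 6.74e-07). The call at 8 h was lost without replicate 1 or 3 of the inducible cells or replicate 2 of CTRL (adjusted p = 0.0174, 0.0193 and 0.0115). Against 0 h SLC3A2 rose in CTRL by a log2 of 0.77 at 8 h, 0.57 at 24 h and 0.26 at 48 h and in the inducible cells by 0.60, 0.52 and 0.41. The CTRL call at 48 h was lost without replicate 1 or 2 at 0 h or replicate 3 at 48 h (adjusted p = 0.0139, 0.0138 and 0.0131).

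SLC7A1 (ENSG00000139514, chr13:29509414-29595688, minus strand), the importer of arginine and lysine, was the member that stood lower in the inducible cells at every time. CTRL libraries gave 350.0, 345 and 342 CPM at 0 h, 493, 494 and 512 CPM at 8 h, 423, 415 and 408 CPM at 24 h, and 349, 349 and 364 CPM at 48 h. The inducible libraries gave 263, 271 and 269 CPM at 0 h, 368, 374 and 372 CPM at 8 h, 318, 315 and 312 CPM at 24 h, and 283, 269 and 271 CPM at 48 h. SLC7A1 was lower by a log2 of −0.38 at 0 h (SE 0.0273, adjusted p = 5.72e-10), −0.43 at 8 h (SE 0.0454, adjusted p = 1.46e-05), −0.40 at 24 h (SE 0.0282, adjusted p = 3.91e-12) and −0.37 at 48 h (SE 0.0421, adjusted p = 6.75e-06). Both lines peaked at 8 h and were back near their 0 h level at 48 h. The rise was 1.47-fold at 8 h and 1.2-fold at 24 h in CTRL and 1.38-fold and 1.18-fold in the inducible cells, each past the threshold, and the change at 48 h was 1.02-fold in both lines and did not pass. The interaction for SLC7A1 was −0.07 at 8 h (95% interval −0.16 to 0.03), −0.02 at 24 h (−0.10 to 0.05) and −0.01 at 48 h (−0.11 to 0.08), which bounds a difference between the lines to about these sizes.

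SLC1A5 (ENSG00000105281, chr19:46774883-46788594, minus strand), a sodium-coupled exchanger and main entry for glutamine, gave 268, 271 and 272 CPM in CTRL at 0 h and 325, 329.8 and 343 CPM in the inducible cells. At 8 h the values were 342, 317 and 307 CPM in CTRL and 419, 389.7 and 413 CPM in the inducible cells. At 24 h they were 322, 320.1 and 316 CPM against 427, 405 and 408 CPM, and at 48 h 259, 241 and 262 CPM against 385, 359 and 353 CPM. The inducible libraries were above all CTRL libraries at each time, by a log2 of 0.29 at 0 h (SE 0.0289), 0.34 at 8 h (SE 0.0564), 0.37 at 24 h (SE 0.0295) and 0.52 at 48 h (SE 0.0489), each past the threshold. Against 0 h SLC1A5 rose in the inducible cells by 0.29 at 8 h, 0.32 at 24 h and 0.13 at 48 h. The last of these calls was lost without replicate 1 of the inducible cells at 0 h (adjusted p = 0.0148) and in a model of all 24 libraries (adjusted p = 0.0106). In CTRL the difference from 0 h was 0.28 at 8 h (adjusted p = 0.0124), 0.24 at 24 h (adjusted p = 4.22e-06) and −0.09 at 48 h (adjusted p = 0.113). The CTRL value at 8 h passed without replicate 1 or 3 of the 8 h libraries (adjusted p = 0.00356 and 0.00333), under DESeq2 (0.00459), with no filter on low counts (0.000368) and in the model of all 24 libraries (0.000139). The interaction at 48 h was 0.21 (SE 0.0564, adjusted p = 0.0202), and it passed without replicate 1 of CTRL at 48 h (0.23, adjusted p = 0.00779), under DESeq2 (adjusted p = 0.00878) and with no filter (adjusted p = 0.00399). Exons of SLC1A5 overlap ENSG00000275719 on the other strand, which had group means of 1.42 to 2.27 CPM, and whether strand was used in counting is not given in the sources used here.

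SLC1A4 (ENSG00000115902, chr2:64988477-65023865, plus strand), a carrier of alanine, serine and cysteine, had the next largest rise after SLC7A11 in CTRL and the largest of the 10 in the inducible cells, at all 3 times. CTRL libraries gave 13.3, 13.7 and 14.4 CPM at 0 h, 50, 48.3 and 48.8 CPM at 8 h, 32.9, 34.4 and 32.7 CPM at 24 h, and 38.1, 40.0 and 38.2 CPM at 48 h. The inducible cells gave 17.3, 17.3 and 16.9 CPM at 0 h, 54.0, 58.7 and 54.5 CPM at 8 h, 37.3, 37.3 and 33.2 CPM at 24 h, and 47.8, 44.9 and 43.2 CPM at 48 h. All treated libraries of a line were above its 0 h libraries. In CTRL SLC1A4 rose 3.62-fold at 8 h (log2 1.86, SE 0.0687), 2.42-fold at 24 h (log2 1.27, SE 0.0615) and 2.8-fold at 48 h (log2 1.49, SE 0.0697). It rose 3.23-fold in the inducible cells at 8 h (log2 1.69, SE 0.0534), 2.1-fold at 24 h (log2 1.07, SE 0.0647) and 2.62-fold at 48 h (log2 1.39, SE 0.0601). The line difference passed at 0 h (1.24-fold, adjusted p = 0.00144) and did not pass at 8 h (1.13-fold, adjusted p = 0.0322), 24 h (1.07-fold, adjusted p = 0.135) or 48 h (1.17-fold, adjusted p = 0.0109). The call at 0 h was lost under DESeq2 (adjusted p = 0.0108). The value at 48 h passed without replicate 2 of CTRL (adjusted p = 0.00905), with a replicate block (log2 0.22, adjusted p = 0.00759) and in a model of all 24 libraries (log2 0.22, adjusted p = 0.00074), and the value at 8 h passed in that model as well (log2 0.18, adjusted p = 0.00359).

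SLC38A1 (ENSG00000111371, chr12:46183063-46270017, minus strand) and SLC38A2 (ENSG00000134294, chr12:46358188-46372773, minus strand) are neighbouring genes on chromosome 12 for sodium-coupled carriers of glutamine and alanine. SLC38A1 gave 399, 366 and 385 CPM in CTRL at 0 h, 404, 454 and 497 CPM at 8 h, 443, 438 and 418 CPM at 24 h, and 362, 434 and 407 CPM at 48 h. The inducible libraries gave 448, 445 and 437 CPM at 0 h, 690.1, 682 and 696 CPM at 8 h, 517, 537 and 543 CPM at 24 h, and 515, 512 and 536 CPM at 48 h. The 3 CTRL libraries at 8 h were spread widely, and the inducible libraries were close together and above them. SLC38A1 was higher in the inducible cells by a log2 of 0.20 at 0 h (SE 0.0301), 0.61 at 8 h (SE 0.0665), 0.29 at 24 h (SE 0.029) and 0.38 at 48 h (SE 0.0568), each past the threshold. Against 0 h it rose in the inducible cells by 0.63 at 8 h, 0.27 at 24 h and 0.22 at 48 h. In CTRL the difference was 0.26 at 8 h (adjusted p = 0.0627), 0.18 at 24 h (adjusted p = 0.00072) and 0.06 at 48 h (adjusted p = 0.432). The CTRL value at 8 h passed without replicate 1 at 8 h (0.32, adjusted p = 0.000398), with no filter on low counts (adjusted p = 0.000417) and in a model of all 24 libraries (adjusted p = 0.00497). The CTRL call at 24 h was lost without replicate 1 or 2 at 24 h (adjusted p = 0.0133 and 0.0145) and in that model (adjusted p = 0.0632). The interaction for SLC38A1 at 8 h was 0.39 (SE 0.0771, adjusted p = 0.00716). It was 0.36 to 0.43 without any single one of all inducible libraries at 0 h or 8 h, all CTRL libraries at 0 h or CTRL replicate 2 at 8 h, and each of these 10 omissions ended the call (adjusted p = 0.0113 to 0.0289). A replicate block did so too (adjusted p = 0.0149).

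SLC38A2, the highest of the 10 per length, had no rise that passed the threshold. CTRL libraries gave 1711, 1489 and 1537 CPM at 0 h, 1066, 1365 and 1489 CPM at 8 h, 1331, 1312 and 1324 CPM at 24 h, and 1358, 1582 and 1590.4 CPM at 48 h. The inducible libraries gave 1355, 1387 and 1374 CPM at 0 h, 1412, 1397 and 1429 CPM at 8 h, 1153, 1189.7 and 1215 CPM at 24 h, and 1395, 1401 and 1505 CPM at 48 h. In CTRL, replicate 1 was the highest library at 0 h and the lowest at 8 h and at 48 h. At 24 h SLC38A2 fell in CTRL (log2 −0.25, SE 0.0337, adjusted p = 3.21e-05) and in the inducible cells (−0.21, SE 0.0236, adjusted p = 3.36e-07). At 8 h the difference in CTRL was of the same size with a wider error (−0.25, SE 0.101, adjusted p = 0.209) and passed with no filter on low counts (−0.27, adjusted p = 3.51e-09). SLC38A2 was lower in the inducible cells at 0 h (−0.21, SE 0.034, adjusted p = 2.75e-05) and at 24 h (−0.16, SE 0.0246, adjusted p = 3.4e-06). The 4 calls at 0 h and 24 h were lost in a model of all 24 libraries (adjusted p = 0.0357 and 0.0521 against 0 h in CTRL and in the inducible cells, 0.0258 and 0.0809 between the lines). The difference between the lines was 0.11 at 8 h (adjusted p = 0.358) and −0.08 at 48 h (adjusted p = 0.269, and −0.15 with adjusted p = 0.00151 without replicate 1 of CTRL at 48 h). The interaction at 8 h was 0.31 (adjusted p = 0.121), and it passed without replicate 3 of CTRL at 8 h (0.41, adjusted p = 0.00638) and with no filter (0.31, adjusted p = 1.66e-07).

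SLC6A9 (ENSG00000196517, chr1:43991500-44031467, minus strand), the glycine transporter GlyT1, gave 12.1, 13.9 and 13.8 CPM in CTRL at 0 h against 18.8, 21.9 and 20.5 CPM in the inducible cells. At 8 h the CTRL libraries gave 28.7, 29.4 and 25.0 CPM and the inducible ones 29.0, 29.7 and 33.3 CPM, which overlapped. At 24 h the values were 25.0, 23.2 and 22.5 CPM in CTRL and 26.4, 24.4 and 25.1 CPM in the inducible cells, and at 48 h 26.0, 23.4 and 23.8 CPM and 30.6, 27.6 and 27.1 CPM. The lines were thus apart at 0 h and at 48 h and overlapped at 8 h and 24 h. SLC6A9 was 1.53-fold higher in the inducible cells at 0 h (log2 0.62, SE 0.0797, adjusted p = 2.07e-06), and the line difference did not pass at 8 h (1.1-fold, adjusted p = 0.218), 24 h (1.07-fold, adjusted p = 0.181) or 48 h (1.16-fold, adjusted p = 0.0321). Against 0 h it rose 2.13-fold at 8 h, 1.78-fold at 24 h and 1.84-fold at 48 h in CTRL and 1.48-fold, 1.24-fold and 1.38-fold in the inducible cells, each past the threshold. The rise in the inducible cells at 24 h was lost without replicate 1 at 0 h (adjusted p = 0.014). The interaction was −0.49 at 8 h (SE 0.122, adjusted p = 0.0296), −0.51 at 24 h (SE 0.1, adjusted p = 0.000987) and −0.42 at 48 h (SE 0.114, adjusted p = 0.0234), and the value at 8 h passed without replicate 3 of CTRL at 8 h (−0.56, adjusted p = 0.0042) and with no filter on low counts (−0.49, adjusted p = 0.00242). In contrast to SLC7A11, the mean gain of SLC6A9 was smaller in the inducible cells in CPM as well. It was 14.4 (SE 1.48) in CTRL and 10.3 (SE 1.6) in the inducible cells at 8 h. The gains were 10.3 (SE 0.944) and 4.94 (SE 1.06) at 24 h, and 11.1 (SE 0.978) and 8.03 (SE 1.4) at 48 h. The difference between the lines in these gains was not tested. Exons of SLC6A9 overlap CCDC24 on the other strand, which had group means of 1.34 to 3.12 CPM.

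SLC43A1 (ENSG00000149150, chr11:57484534-57515780, minus strand), a uniporter of large neutral amino acids, was the lowest member. CTRL libraries gave 2.13, 1.8 and 1.93 CPM at 0 h, 3.3, 2.46 and 2.09 CPM at 8 h, 1.97, 2.47 and 2.33 CPM at 24 h, and 4.64, 4.94 and 5.69 CPM at 48 h. The inducible libraries gave 2.77, 1.65 and 2.08 CPM at 0 h, 2.21, 2.29 and 2.28 CPM at 8 h, 1.85, 2.62 and 2.03 CPM at 24 h, and 3.23, 4.28 and 3.74 CPM at 48 h. In each line the 48 h libraries stood above all earlier libraries of that line. SLC43A1 rose at 48 h by 2.59-fold in CTRL (log2 1.37, SE 0.161, adjusted p = 2.98e-05) and by 1.75-fold in the inducible cells (log2 0.80, SE 0.188, adjusted p = 0.000876). The second of these calls was lost without replicate 2 at 0 h or replicate 2 at 48 h of the inducible cells (log2 0.63 and 0.69, adjusted p = 0.0124 and 0.0137). The line difference at 48 h was −0.43 (SE 0.149, adjusted p = 0.0278) and the interaction −0.58 (95% interval −1.13 to −0.03, adjusted p = 0.187). At its other times no comparison of SLC43A1 passed, with wide intervals, such as −0.44 to 0.47 for the inducible cells at 24 h against 0 h.

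The members are next set against all genes, first for the lines at the same time, the comparison made to separate C/EBPδ from doxycycline. At 0 h 9 of 10 members passed, 7 higher and 2 lower in the inducible cells, where 43.9% of 15317 genes tested passed (20% higher, 23.9% lower). At 8 h 6 passed, 5 higher and 1 lower, against 31.8% of genes (14.3% higher, 17.4% lower). At 24 h 7 passed, 5 higher and 2 lower, against 46.9% (21.5% higher, 25.3% lower), and at 48 h 6 passed, 5 higher and 1 lower, against 38.3% (17.6% higher, 20.7% lower). SLC7A11, SLC7A5, SLC3A2, SLC1A5 and SLC38A1 were higher and SLC7A1 lower at all 4 times. The median difference of the members was a log2 of 0.30 at 0 h, 0.24 at 8 h, 0.20 at 24 h and 0.30 at 48 h, and the median over all genes lay between 0.0040 and 0.0098. A line difference at a later time holds the one that the 9 members had at 0 h.

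**Figure D2:**
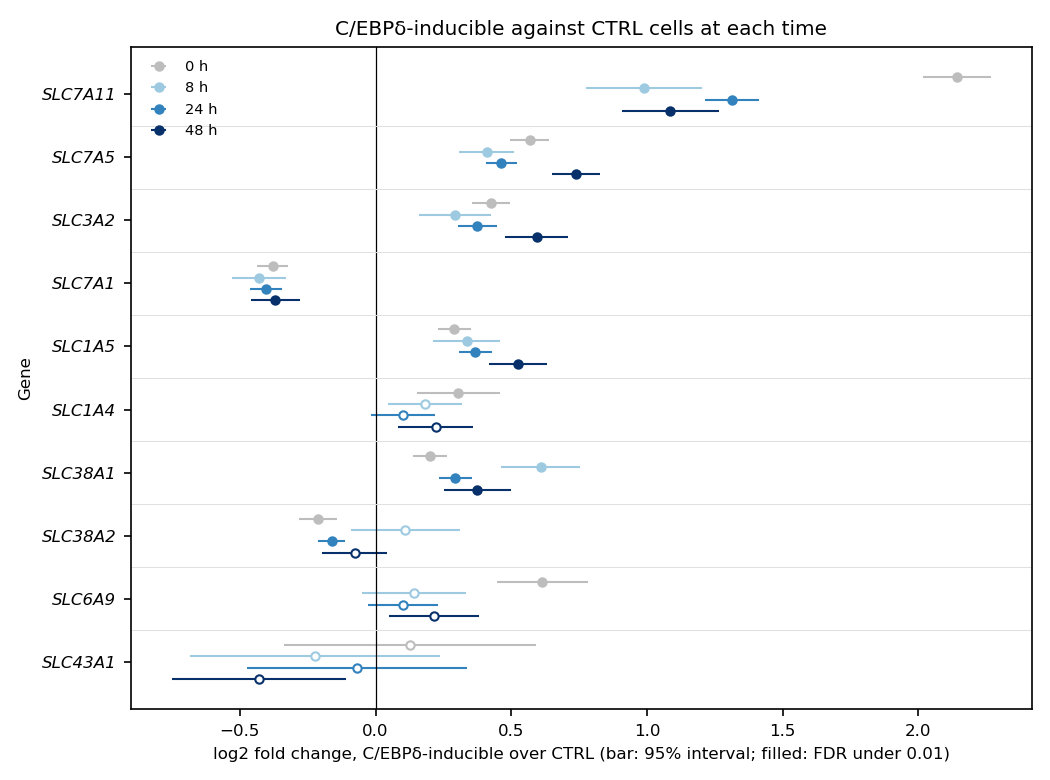
Log2 fold change of the C/EBPδ-inducible over the CTRL cells (x axis) for the 10 transporters (y axis) at 0, 8, 24 and 48 h, with 3 libraries per group. Bars are 95% intervals, filled points passed an adjusted p under 0.01 and the line at 0 marks no difference. SLC7A11 stands at 0.99 to 2.14, highest at 0 h, and SLC7A1 at −0.43 to −0.37.

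Within the CTRL cells, which carry no CEBPD cDNA, the transporters moved with doxycycline and time. At 8 h 6 of 10 members were called higher and 0 lower, where 1.7% of 15253 genes passed (0.905% higher and 0.793% lower). At 24 h 8 were higher and 1 lower, against 6.06% of genes (2.81% higher, 3.25% lower). At 48 h 6 were higher and 0 lower, against 30% (15.2% higher, 14.7% lower). The median change of the members was a log2 of 0.66, 0.42 and 0.37 at these times, and that of all genes 0.01, 0.0032 and 0.0088. In the inducible cells 8 members rose and 0 fell at 8 h, where 30.5% of genes passed (14.6% higher, 15.8% lower), 8 rose and 1 fell at 24 h, against 15.5% (7.33% higher, 8.14% lower), and 8 rose and 0 fell at 48 h, against 38.7% (19.1% higher, 19.5% lower). The median changes were 0.58, 0.32 and 0.44. SLC7A11, SLC7A5, SLC3A2, SLC1A4 and SLC6A9 rose in both lines at all 3 times. The count over all genes in CTRL rested on single libraries. The 259 genes called at 8 h became 774 without replicate 1 at 8 h and 92 to 105 without replicate 2 at 8 h or any one replicate at 0 h, and the 921 at 24 h became 505 to 583 without replicate 3 at 0 h or any one replicate at 24 h. The 3 comparisons of a line share its 0 h libraries, so a common offset of those libraries enters all of them. The labels do not say whether the libraries of the later times came from the same cultures as those at 0 h. A difference between cultures would enter the changes from 0 h as well, and its part in them was not tested.

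**Figure D3:**
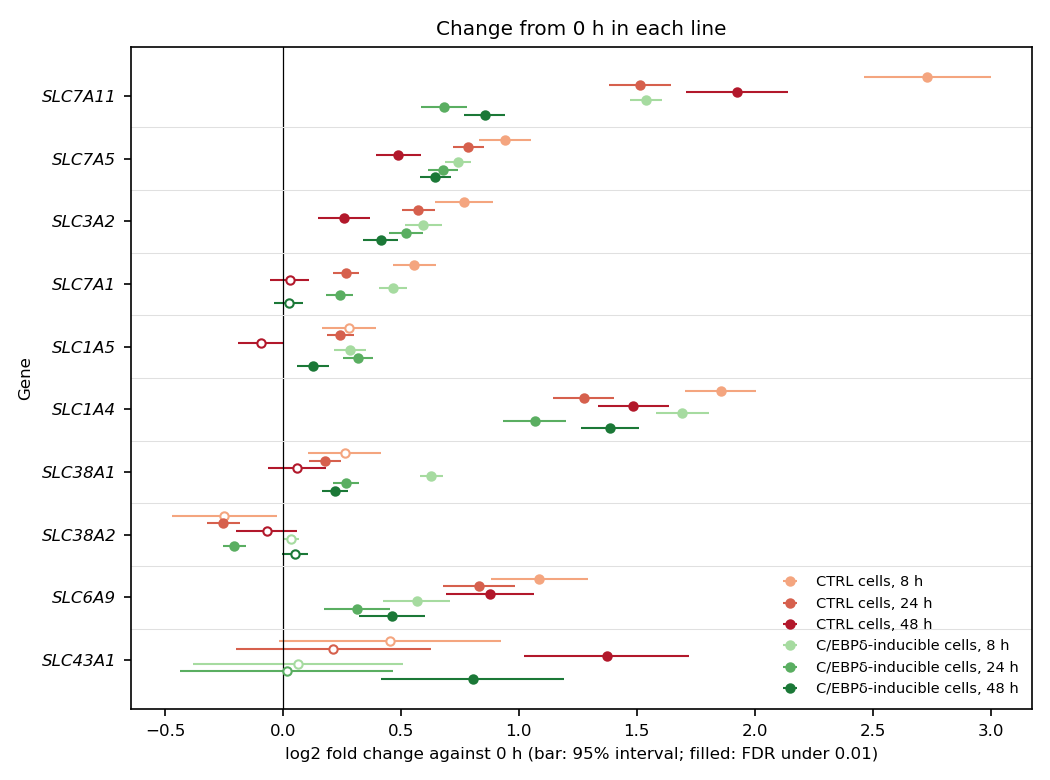
Log2 fold change from 0 h (x axis) of the 10 transporters (y axis) in CTRL cells (reds) and C/EBPδ-inducible cells (greens) after 8, 24 and 48 h of doxycycline, with 3 libraries per group. Bars are 95% intervals and filled points passed an adjusted p under 0.01. The points of SLC7A11 are farther right in CTRL (1.51 to 2.73) than in the inducible cells (0.68 to 1.54), those of SLC1A4 lie at 1.07 to 1.86 in both lines, and SLC38A2 stays between −0.25 and 0.05.

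The interaction asks whether the change from 0 h differed between the lines. At 8 h 2 of 10 members passed, SLC38A1 above 0 and SLC7A11 below, where 1.66% of 16228 genes passed (0.887% above and 0.77% below 0). These 269 genes became 1196 without replicate 3 of CTRL at 8 h, with 4 members called, and 131 to 147 without replicate 2 of CTRL at 8 h or any one of the CTRL libraries at 0 h or the inducible libraries at 0 h or 8 h, with 1 member called. At 24 h 2 passed, SLC7A11 and SLC6A9, both below 0, against 5.84% of genes (2.98% below). At 48 h 1 passed, SLC7A11, below 0, against 5.54% (2.72% below). The medians of the members were −0.14, −0.07 and 0.05, with −0.0079, −0.0009 and −0.01 over all genes. For SLC7A5 the interaction was −0.17 at 8 h (95% interval −0.30 to −0.05, adjusted p = 0.0998), −0.10 at 24 h (−0.20 to −0.0043, adjusted p = 0.207) and 0.15 at 48 h (0.03 to 0.27, adjusted p = 0.11). For SLC1A4 it was −0.14 at 8 h (−0.31 to 0.04), −0.20 at 24 h (−0.39 to −0.02) and −0.11 at 48 h (−0.30 to 0.08), none past the threshold.

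**Figure D4:**
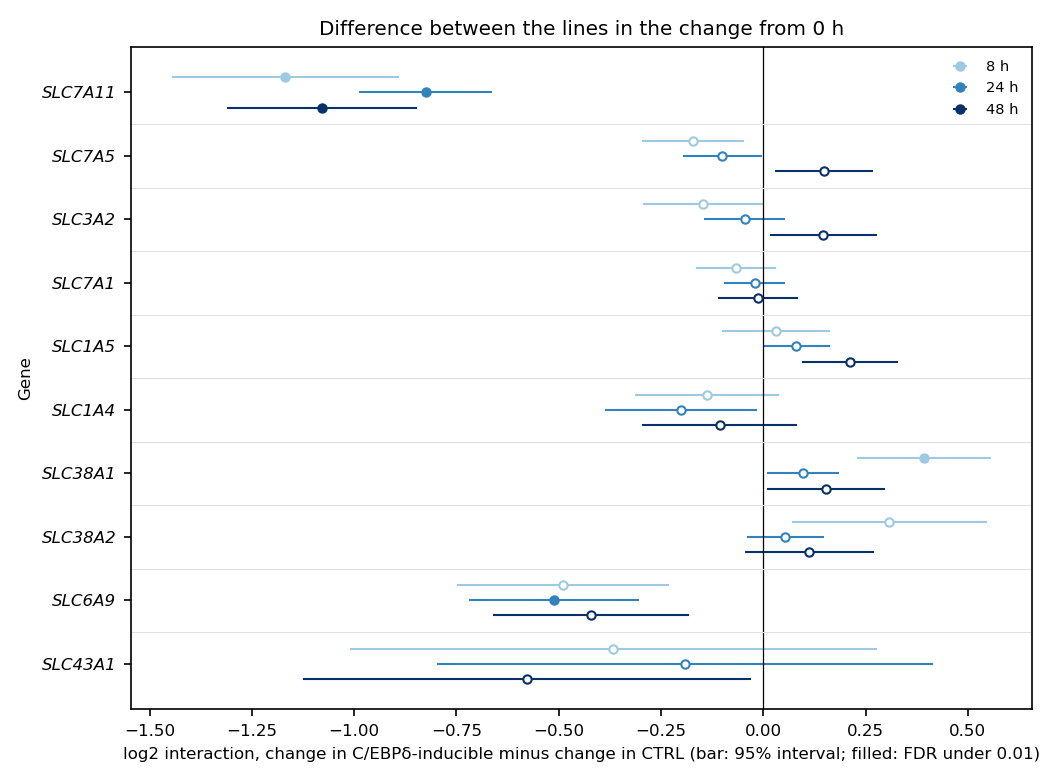
Interaction of line and doxycycline (x axis, log2, change from 0 h in C/EBPδ-inducible cells minus change in CTRL cells) for the 10 transporters (y axis) at 8, 24 and 48 h, with 3 libraries in each of the 4 groups. Bars are 95% intervals and filled points passed an adjusted p under 0.01. SLC7A11 is at −1.17, −0.83 and −1.08, SLC6A9 passes at 24 h (−0.51), SLC38A1 at 8 h (0.39), and the other points are open.

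ATF4 and 16 further genes of its pathway moved beside the transporters. In CTRL cells 13 of 16 tested rose and 0 fell at 8 h, 13 of 17 rose and 1 fell at 24 h, and 14 rose and 1 fell at 48 h, where 0.905%, 2.81% and 15.2% of all genes rose. Of the 17, in the inducible cells, 14 rose and 0 fell at 8 h, 11 rose and 0 fell at 24 h, and 14 rose and 1 fell at 48 h, where 14.6%, 7.33% and 19.1% of all genes rose. The gene that fell was PPP1R15A, which restarts translation after stress, named after its values were seen. The median changes of the pathway were 1.16, 0.82 and 0.96 in CTRL and 0.70, 0.64 and 0.91 in the inducible cells. Between the lines 14 of 16 were higher in the inducible cells at 0 h, 8 of 17 at 8 h, 13 at 24 h and 12 at 48 h, and 0 were lower, where 20%, 14.3%, 21.5% and 17.6% of all genes were higher and 43.9%, 31.8%, 46.9% and 38.3% passed in either direction. ATF4 transcript stood at 114 ± 3.43 CPM in CTRL at 0 h and 260 ± 16 CPM at 8 h, and at 159 ± 4.68 and 277 ± 5.06 CPM in the inducible cells (SD, n = 3). It was 1.38-fold higher in the inducible cells at 0 h (adjusted p = 1.45e-09) and 1.06-fold at 8 h (adjusted p = 0.23), and its interaction was −0.39 at 8 h (SE 0.0658, adjusted p = 0.00257), −0.09 at 24 h (adjusted p = 0.305) and −0.12 at 48 h (adjusted p = 0.179). ATF4 is known to be controlled mainly at translation, which these data do not measure.

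In the interaction 5 of 17 pathway genes were below 0 and 0 above at 8 h, 4 below and 1 above at 24 h, and 5 below and 1 above at 48 h, where 0.77%, 2.98% and 2.72% of all genes were below 0. CHAC1, which breaks down glutathione, went from 2.35 to 10.3 CPM in CTRL and from 7.19 to 18.3 CPM in the inducible cells between 0 h and 24 h (interaction −0.77, SE 0.162, adjusted p = 0.002). ASNS, asparagine synthetase, went from 66.7 to 174 CPM in CTRL and from 125 to 241 CPM in the inducible cells (−0.42, SE 0.0672, adjusted p = 9.7e-05). TRIB3, a pseudokinase that dampens ATF4, started level in both lines, at 17.3 and 16.7 CPM, and reached 34.7 CPM in CTRL and 49.8 CPM in the inducible cells at 24 h (0.57, SE 0.0874, adjusted p = 5e-05). CHAC1 and ASNS, like SLC7A11 and SLC6A9, were higher in the inducible cells at 0 h, and TRIB3 was not. SLC7A5, SLC3A2, SLC1A5, SLC1A4 and SLC38A1 were also higher there at 0 h. Their interactions at 24 h were −0.10, −0.05, 0.08, −0.20 and 0.10, none past the threshold. The 0 h difference is subtracted in the interaction, so the 2 are not independent, and a link between them was not tested.

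Of 29 other plasma membrane amino acid transporters only 7 to 9 passed the filter on low counts. Of these 0 rose and 1 fell in CTRL at 8 h and at 24 h, and 1 rose and 2 fell at 48 h, with medians of −0.19, −0.07 and −0.09, where 0.793%, 3.25% and 14.7% of all genes fell. In the inducible cells 1 rose and 2 fell at 8 h, 0 rose and 2 fell at 24 h, and 1 rose and 3 fell at 48 h, with medians of 0.02, −0.02 and −0.05, where 15.8%, 8.14% and 19.5% of all genes fell. Between the lines 3 of 8 were higher and 3 lower in the inducible cells at 0 h, and 4 of 8 and 3 at 8 h. At 24 h 2 of 8 and at 48 h 2 of 9 were higher, and 3 were lower each time. Of all genes 43.9%, 31.8%, 46.9% and 38.3% passed at the 4 times. The median absolute line difference was a log2 of 0.447, 0.666, 0.385 and 0.462. For the members it was 0.342, 0.314, 0.331 and 0.403. SLC38A4, a carrier of small neutral and cationic amino acids, was the one called in the interaction at 24 h (−0.43, SE 0.0928, adjusted p = 0.00255). It stood at 20.7 and 19.7 CPM in CTRL at 0 h and 24 h and at 28.0 and 19.6 CPM in the inducible cells.

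The genes with the profile most like a member were sought for the members called in the interaction at 24 h. Likeness was the root mean square difference between centred profiles of mean log2(CPM + 1) over the 8 groups, among 17023 genes. For SLC7A11 the nearest were VLDLR (0.363), CHAC1 (0.385) and TUBE1 (0.42), and its own profile had an SD of 1.03. For SLC6A9 they were GARS1 (0.0834) and AARS1 (0.0965), which charge transfer RNA with glycine and alanine, and the pseudogene ATF4P3 (0.112), with an SD of 0.339 for SLC6A9 itself. ATF4P3 can share reads with ATF4. The 8 points share libraries and line, and the likeness is a description.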

How the data were processed

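RNA was sequenced from 24 libraries of MIA PaCa-2 cells. Per the labels and the methods of the study, the authors used Trimmomatic for trimming, HISAT2 for alignment (build GRCh38) and HTSeq for counting, and deposited raw counts per Ensembl gene. The trimming and alignment versions differ between the sources and the strand setting is not given in the sources used here. Gene symbols, coordinates and exon lengths were taken from GENCODE 44 (56558 of 60675 identifiers matched). Counts were tested with edgeR 4.0.16 in R 4.3.3 (filterByExpr, TMM, quasi-likelihood test), fitted on the groups compared and on all genes, with Benjamini-Hochberg adjustment and a threshold of 0.01, in place of the ANOVA used by the authors, which was not run. CPM levels were TMM-scaled over all 24 libraries. Library totals of 12731237 to 22598595 counts limit precision for SLC43A1 above all.

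The 10 members and the other gene lists were chosen with earlier results of these data known. All members are named in every comparison. Of each other list up to 3 genes are named, those with the largest interaction called at 24 h, plus ATF4. CEBPD and the markers of ductal and other cell types are named as checks of the labels, and PPP1R15A, the transcripts shared between libraries and the genes that overlap or copy a member were named after their values were seen. Same-numbered libraries of CTRL at 24 h and 0 h deviated together (r over genes 0.115, 0.131 and 0.141 for numbers 1, 2 and 3), and a replicate block kept 9 members called there. In no other comparison did every number pass 0.1. Alternatives were RLE size factors, DESeq2 1.42.0, a minimum of 10 counts throughout, no filter, one model over the 24 libraries, a replicate block and leaving out each library. The tests were checked on simulated counts for the line difference and the interaction at 24 h only. Those counts had independent libraries and the same spread setting for every gene, and the other comparisons were not simulated. One ductal marker and one overlapping gene are not reported here.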

Additional observations from a re-analysis of the deposited data

Results flagged for a closer look

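The change from 0 h differed between the lines, by the interaction term, in 5 values of 3 members. SLC7A11 had interactions of −1.17 at 8 h (SE 0.131, adjusted p = 0.00011), −0.83 at 24 h (SE 0.0789, adjusted p = 4.7e-08) and −1.08 at 48 h (SE 0.111, adjusted p = 2.07e-06), and its gain counted in CPM had the opposite order of the lines. SLC6A9 had −0.51 at 24 h (SE 0.1, adjusted p = 0.000987). SLC38A1 had 0.39 at 8 h (SE 0.0771, adjusted p = 0.00716), a call that 10 of the 12 omissions of a library ended. The 3 values of SLC7A11 share the 0 h libraries of both lines, where its level was 11.3 to 11.9 CPM in CTRL and 50.2 to 52.6 CPM in the inducible cells.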

How the results depend on the processing

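The 13 counts of members called were computed under 174 alternatives, and 158 stayed within 1.5 times. In the interaction at 8 h the count of 2 became 4 with no filter and 1 with a replicate block, and 1 to 4 when a library was left out. In the interaction at 48 h the count of 1 became 2 under DESeq2 and 2 with no filter, and 1 to 2 when a library was left out. Of 1740 values of single members 1671 kept direction and side of the threshold, 30 lost and 21 gained a call, and 18 changed sign, none of them called. For SLC7A1 in the interaction at 48 h the value was 0.0006 with RLE size factors, 0.0003 under DESeq2, 0.0090 with at least 10 counts in every library and 0.0025 in the model of all 24 libraries, and −0.0346 to 0.0091 over the libraries left out. The other sign changes came with a library left out. The ranges over the libraries left out were −0.0942 to 0.3065 for SLC43A1 between the lines at 0 h, −0.0204 to 0.2082 for SLC38A2 at 8 h and −0.2267 to 0.0300 for SLC43A1 at 24 h. Against 0 h in the inducible cells they were −0.1120 to 0.2828 for SLC43A1 at 8 h, −0.1648 to 0.2342 for SLC43A1 at 24 h and −0.0004 to 0.0389 for SLC7A1 at 48 h. In the interaction they were −0.0022 to 0.0774 for SLC1A5 at 8 h, and −0.3693 to 0.0307 for SLC43A1 and −0.0038 to 0.0970 for SLC38A2 at 24 h. Under DESeq2 SLC1A4 at 0 h between the lines lost its call (adjusted p = 0.0108). The cause of these moves was not tested.

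The replicate block moved the count of all genes called in CTRL from 259 to 87 at 8 h, from 921 to 1011 at 24 h and from 4583 to 3549 at 48 h, and in the interaction at 8 h from 269 to 162. Outside CTRL at 24 h, same-numbered libraries did not all deviate together in the comparisons made. None of these set the 8 h libraries of a line against its 48 h libraries, so a link between those was not tested. In the inducible cells KRT5 had 0 and 3 counts in replicate 1 at 8 h and 48 h, 40 and 102 in replicate 2, and 82 and 97 in replicate 3. KRT17 matched less by number, with 3 and 19, 57 and 29, and 59 and 17 counts. The model of all 24 libraries called 1229 genes in CTRL at 8 h, 582 (of 921) at 24 h, 3127 (of 4693) in the inducible cells at 8 h, and 441 and 603 (of 948) in the interaction at 8 h and 24 h. With no filter 843 genes were called in CTRL at 8 h and 936 in the interaction at 8 h, and DESeq2 called 403 in CTRL at 8 h. Depth limits SLC43A1, whose intervals at 8 h and 24 h include changes in either direction.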

Other observations

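Genes next to amino acid transport were also read. Of 7 lysosomal amino acid transporters, 0 rose and 0 fell in CTRL at 8 h and 24 h. At 48 h 0 rose and 3 fell in that line. In the inducible cells 1 rose and 1 fell at 8 h, and 0 rose and 0 fell at 24 h. At 48 h 0 rose and 3 fell there. Of all genes 14.7% in CTRL and 19.5% in the inducible cells fell at 48 h. Of 9 genes for making and using glutathione 2 rose at 8 h, 4 at 24 h and 4 at 48 h in CTRL with 0 lower, and in the inducible cells 4, 5 and 3 rose and 1 fell at each time. Of all genes 0.905%, 2.81% and 15.2% rose in CTRL and 14.6%, 7.33% and 19.1% in the inducible cells at these times. The shares that fell were 0.793%, 3.25% and 14.7% in CTRL and 15.8%, 8.14% and 19.5% in the inducible cells. The counts of the enzymes below stand against the same shares. GCLM, the regulatory subunit of the enzyme that starts glutathione synthesis, went from 327 to 296 CPM in CTRL and from 304 to 234 CPM in the inducible cells between 0 h and 24 h (interaction −0.23, SE 0.0455, adjusted p = 0.00113). GPX4, the peroxidase that uses glutathione against lipid peroxides, went from 170.0 to 188 CPM and from 183 to 233 CPM (interaction 0.21, SE 0.046, adjusted p = 0.00272).

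Of 9 enzymes of glutamine and branched-chain amino acid use, 8 were tested in CTRL and 7 in the inducible cells. In CTRL 3 rose and 0 fell at 8 h and at 24 h, and 3 rose and 1 fell at 48 h. The inducible cells had 4 higher at each time, with 1, 2 and 1 lower. GOT1, the cytosolic aspartate aminotransferase, was lower in the inducible cells at 0 h, with 54.5 CPM against 91.1 CPM in CTRL, and reached 89.2 and 115 CPM at 24 h (interaction 0.39, SE 0.051, adjusted p = 6.78e-06). Its interaction was 0.46 at 8 h and 0.42 at 48 h, each past the threshold.

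Among the 8 ductal markers, 7 tested at 24 h, 1 was above and 4 below 0 in the interaction, where 2.86% of all genes were above and 2.98% below 0. With the interaction in brackets, CDH1 (3.93, SE 0.653) rose from 0.121 to 1.76 CPM in the inducible cells, KRT19 (−0.84, SE 0.105) went from 16.1 to 7.55 CPM and KRT8 (−0.74, SE 0.0547) from 74.4 to 36.5 CPM. The CDH1 mean at 0 h lay under the 0.136 to 0.168 CPM that 3 counts make in those libraries. Its log2 value thus rests on very few counts. Of the 12 markers of other cell types 3 were tested and COL1A2 was called (−0.39, SE 0.0578), with 244 CPM at 0 h and 151 CPM at 24 h in the inducible cells and 647 and 526 CPM in CTRL.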
